A study of Mus musculus with 6 samples.

Results

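The 9 genes Ifih1, Ddx58, Irf7, Uba7, Ube2l6, Rsad2, Oasl2, Bst2 and Irgm1 are interferon-stimulated genes, out of 34745 genes measured by RNA-seq in the medial ganglionic eminence (MGE) of mouse embryos. They were picked by symbol because several of them were higher in Sp9 null than in wild type libraries of these same data, so their differences are given as a description, with no p-value of their own, and counts of calls among them support nothing. The MGE is the ventral forebrain region that gives rise to many cortical interneurons, and Sp9 is a zinc finger transcription factor of that region. The 3 wild type libraries came from littermates of the 3 Sp9 null libraries, all at embryonic day 12.5 and all on a mixed background of CD1, 129S6 and C57BL/6J. The labels name no other allele, no treatment and not the way the Sp9 allele was made. They do not say whether a library holds 1 embryo or several, so errors measure the spread between these libraries, which may be partly technical. Of the 9 genes, Ube2l6 and Ifih1 lie on chromosome 2 on either side of Sp9, 11.51 and 10.63 Mb from it, and the other 7 lie on other chromosomes.

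Interferons are secreted proteins that cells make on sensing foreign or misplaced nucleic acid. Type I interferons bind a receptor that activates JAK kinases and, through them, factors that bind an interferon-stimulated response element (ISRE) at many target genes. The products sense viral RNA, amplify the response, attach the ubiquitin-like protein ISG15 to other proteins, or act on viruses and other microbes directly. In the brain these genes are known to respond in microglia, the resident macrophages, as well as in neural and endothelial cells, and many have a low level without interferon.

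The libraries held 6826447 to 10979280 counts, so that 3 counts, used as a floor, correspond to 0.273 to 0.440 CPM (counts per 1000000 counts of the library). Sp9 matched the labels, with counts of 1939, 2700 and 1870 over wild type replicates 1, 2 and 3 and of 89, 116 and 118 over the null ones. All 9 MGE markers were counted, summing to 3848 to 4003 CPM in wild type, against 4570 to 4620 CPM in null libraries. They went both ways, with 6 of the 9 at a log2 fold change of null over wild type above 0. Dlx1 was highest and Gad1 lowest, and these lie 1.74 and 2.67 Mb from Sp9. Replicate 2 of both genotypes stood apart from replicates 1 and 3, with summed pallial markers at 1.37 and 1.28 CPM against 16.7 to 46.1 CPM in the other libraries. The 11 stomach and pancreas genes known from earlier results were at 101.2 to 130.6 summed CPM in the wild type libraries and at 0 in all null libraries. The share of mitochondrial transcripts was 2.20% to 2.28% in wild type and 2.32%, 3.43% and 3.41% in null replicates 1, 2 and 3. Xist, transcribed from the inactive X chromosome of females, and the Y-linked Ddx3y occurred together in several libraries, for example at 2399.5 and 22.2 CPM in wild type replicate 2. The part of these differences in the results on the 9 genes was not tested.

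Some of the 9 promoters hold the core of the response element through which interferon acts on its target genes, and the stretches that hold it are printed here for that reason. All 9 symbols matched the RefSeq promoter table (build GRCm38.p6), which spans 250 bases before to 50 bases after each gene's start. The ISRE core was searched as GAAA, any 2 bases and GAAA again, on both strands, so that TTTC, any 2 bases and TTTC also count. It was found in 5 of the 9 promoters, those of Ifih1, Ddx58, Rsad2, Bst2 and Irgm1, against 3.44% of all 32851 promoters in the table. Among interferon pathway genes other than these 9, 43 of 113 matched symbols (38.1%) held it. Every stretch below is on the minus strand, the strand of its gene, and capitals mark the bases covered by matches.
Rsad2, chr12:26456453-26456602: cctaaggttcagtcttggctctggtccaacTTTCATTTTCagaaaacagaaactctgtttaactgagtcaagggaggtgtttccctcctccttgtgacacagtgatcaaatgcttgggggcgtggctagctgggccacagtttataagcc
Bst2, chr8:71537473-71537622: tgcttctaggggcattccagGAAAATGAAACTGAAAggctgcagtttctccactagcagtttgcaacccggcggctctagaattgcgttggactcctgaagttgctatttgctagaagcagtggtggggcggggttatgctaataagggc
Irgm1, chr11:48871428-48871457: gtttcaaGAAATAGAAACCGAAActgattc
Ddx58, chr4:40239804-40239833: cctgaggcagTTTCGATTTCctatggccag
Ifih1, chr2:62646206-62646235: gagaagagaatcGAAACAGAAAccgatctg
The Rsad2 match began 120 bases before the start, Bst2 had 2 overlapping matches from 130 bases before it, and Irgm1 had 2 overlapping matches from 30 bases before it. In Ddx58 and Ifih1 the match lay just after the start. Only 3 of the 9 promoters held the core in the 250 bases before the start, against 2.98% of all promoters and 3.46% of symbols. The Irgm1 locus of the deposited table starts 263 bases before the RefSeq start, and this stretch lies inside it. For the other 8 genes the starts differed by 0 to 62 bases. A gamma-activated site, TTCNNNGAA (the same on both strands), was found in 1 of 9 promoters, against 8.3% of all promoters and 9.55% of symbols. It was that of Bst2, where the site overlaps the first ISRE core match. A GC box, GGGCGG on either strand, is the kind of sequence that Sp family factors bind. It was found in 4 of 9, against 35.7% of all promoters and 38.2% of symbols. These are matches of letters and not measured binding.

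In these libraries 7 of the 9 genes were higher in every null library than in every wild type library, and 5 of these 7 lie off chromosome 2. Over all tested genes 4.95% had every null library above every wild type library. Because the genes were picked on this contrast, nothing is read from that count. The highest log2 fold changes of null over wild type were those of Irgm1, Uba7 and Oasl2, between 2.24 and 2.79. Irf7 and Bst2 overlapped between the genotypes. The summed level of all 9 genes was 12.2, 13.1 and 11.7 CPM over wild type replicates 1, 2 and 3, and 32.1, 38.9 and 22.2 CPM over the null ones.

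**Figure D1:**
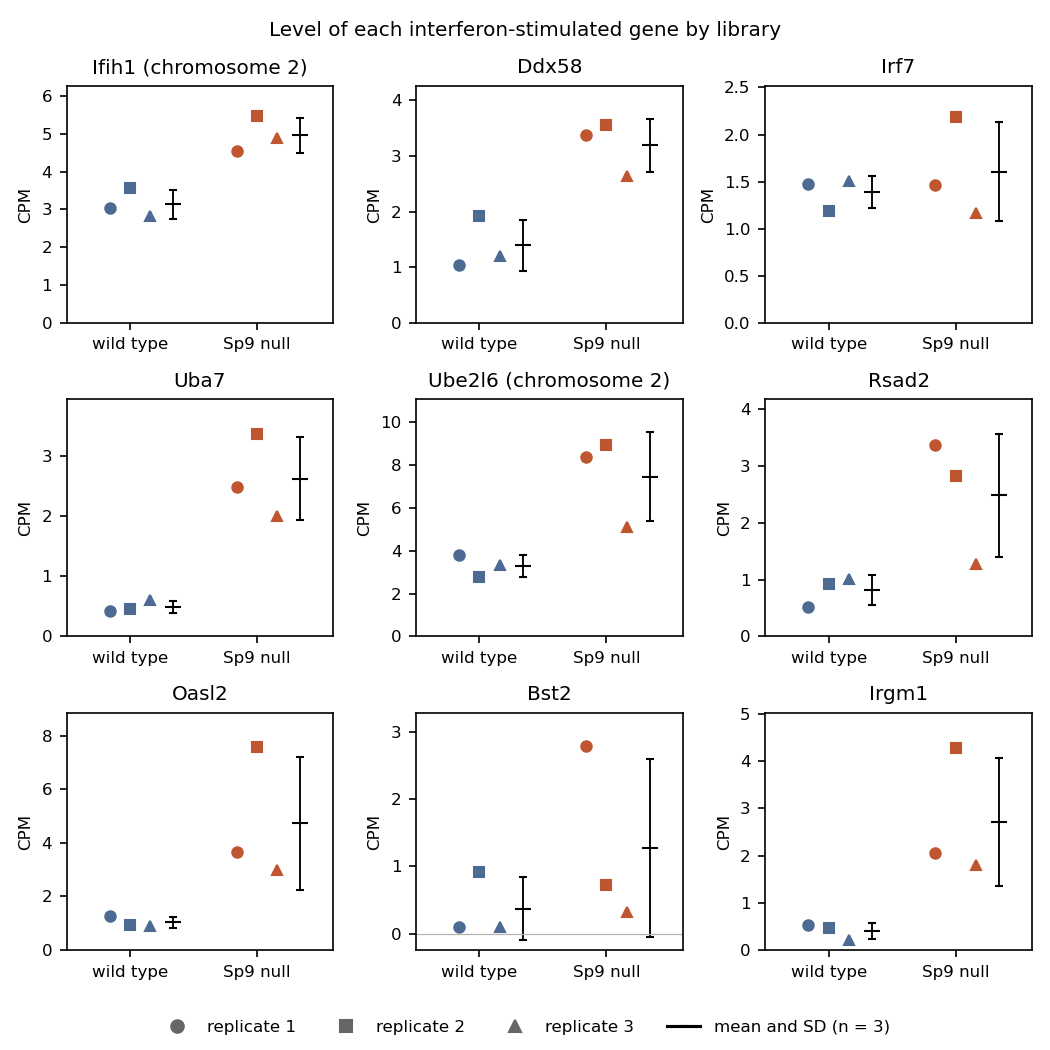
Level of each of the 9 genes (y axis, CPM) in the 3 wild type and 3 Sp9 null libraries, with point shapes for the replicate number and black bars for the mean and SD (n = 3). In 7 panels all null points lie above all wild type points, and in the Irf7 and Bst2 panels the genotypes overlap.

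Ifih1 (ENSMUSG00000026896, chr2:62595798-62646255 on GRCm38) encodes MDA5, a helicase that senses long double-stranded RNA. Wild type replicates 1, 2 and 3 had 3.04, 3.57 and 2.82 CPM, and null replicates 1, 2 and 3 had 4.54, 5.46 and 4.88 CPM. All null libraries lay above all wild type libraries, with the nearest pair less than 1 CPM apart. The group means were 3.15 ± 0.386 CPM for wild type and 4.96 ± 0.467 CPM for null (SD, n = 3), with a fitted log2 fold change of 0.68 (SE 0.22). This was the smallest fold change among the 7 genes without overlap.

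Ddx58 (ENSMUSG00000040296, chr4:40203773-40239828) encodes RIG-I, the helicase that senses short double-stranded RNA with a phosphorylated end. The wild type replicates had 1.05, 1.92 and 1.21 CPM and the null replicates 3.37, 3.55 and 2.65 CPM. The 2 genotypes did not overlap, and wild type replicate 2 was the wild type library nearest to the null ones. The group means were 1.39 ± 0.466 and 3.19 ± 0.476 CPM (SD, n = 3), and the fitted log2 fold change was 1.20 (SE 0.33). Both sensors signal to the interferon genes through the same adaptor, and the fold change of Ddx58 was the higher of the 2.

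Irf7 (ENSMUSG00000025498, chr7:141262706-141266481) encodes the transcription factor that amplifies type I interferon production and is itself induced by interferon. The wild type replicates had 1.47, 1.19 and 1.51 CPM and the null replicates 1.46, 2.19 and 1.17 CPM. Null replicate 2 alone stood above the wild type range, and null replicate 3 was below it. The log2 fold change was 0.25 (SE 0.37), and it was -0.08 without null replicate 2. The Irf7 locus overlaps that of Phrf1, which had 4592 wild type and 4036 null summed counts, and whether the counting used strand is unknown here, so reads could be shared between this pair.

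Uba7 (ENSMUSG00000032596, chr9:107975505-107984060) encodes the activating enzyme of ISG15 conjugation, the first of its enzymes. Its counts were 4, 5 and 6 over the wild type and 17, 37 and 19 over the null replicates. Every null library was well above the wild type range, which spans 0.419 to 0.605 CPM, little over the floor. The wild type mean of 0.494 ± 0.0979 CPM compares with a null mean of 2.63 ± 0.688 CPM (SD, n = 3), and the log2 fold change was fitted at 2.41 (SE 0.39). The ratio of the depth-scaled summed counts was 5.43, with a 95% exact counting interval of 3.08 to 10.2 that covers counting error only. The Uba7 locus overlaps the predicted gene Gm20661, which had 0 wild type and 2 null counts in all.

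Ube2l6 (ENSMUSG00000027078, chr2:84798828-84810335) encodes the conjugating enzyme that takes ISG15 from the Uba7 product. The wild type replicates had 3.78, 2.75 and 3.33 CPM and the null replicates 8.35, 8.93 and 5.09 CPM. The genotypes did not overlap, and null replicate 3 was the lowest of the null libraries. The group means were 3.28 ± 0.515 and 7.46 ± 2.07 CPM (SD, n = 3), with a log2 fold change of 1.20 (SE 0.27). Isg15 itself, the modifier that both enzymes pass on, was counted 10, 9 and 11 times in wild type and 11, 33 and 14 times in null libraries. In CPM its genotypes did not overlap, at 0.825 to 1.11 in wild type against 1.48 to 3.01 in null libraries. Its log2 fold change was 1.08 (SE 0.41), and it was not called with or without the replicate block described below (edgeR adjusted p = 0.156 and 0.801). Herc6, the ligase of the pathway in mouse, averaged 4.10 ± 1.20 and 4.14 ± 1.02 CPM (SD, n = 3), with a log2 fold change of 0.05 (SE 0.31). Usp18, which removes ISG15, had 9 wild type and 20 null counts in all, with overlapping libraries.

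Rsad2 (ENSMUSG00000020641, chr12:26442753-26456452) encodes viperin, a radical enzyme that makes a chain-terminating nucleotide. The wild type replicates had 0.524, 0.916 and 1.01 CPM and the null replicates 3.37, 2.82 and 1.27 CPM. The genotypes did not overlap, but null replicate 3 was close to the highest wild type library. The log2 fold change was 1.59 (SE 0.46). Cmpk2, the neighbouring nucleotide kinase gene that is often induced with Rsad2, averaged 12.1 ± 0.641 CPM in wild type against 10.4 ± 1.32 CPM (SD, n = 3), and its log2 fold change of -0.20 (SE 0.16) did not pass with the block (edgeR adjusted p = 0.545).

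Oasl2 (ENSMUSG00000029561, chr5:114896936-114912234) belongs to the oligoadenylate synthetase family, whose members respond to double-stranded RNA. Its counts were 12, 10 and 9 over the wild type and 25, 83 and 28 over the null replicates. All null libraries exceeded all wild type libraries, and null replicate 2, at 7.56 CPM, was far above null replicates 1 and 3 at 3.66 and 2.97 CPM. The log2 fold change was 2.24 (SE 0.44).

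Bst2 (ENSMUSG00000046718, chr8:71534264-71537437) encodes tetherin, a membrane protein that holds budding virus particles at the cell surface. Its counts were 1, 10 and 1 over the wild type and 19, 8 and 3 over the null replicates, too few to pass the filter on low counts. Wild type replicate 2 lay above null replicates 2 and 3, and null replicate 1 alone stood clear of the wild type range. Scaled for depth, the summed counts had a ratio of 2.79, with a 95% exact interval of 1.39 to 5.98. The interval covers counting error only, and not the spread between libraries, which overlapped here. In each genotype 1 library gave most of the counts.

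Irgm1 (ENSMUSG00000046879, chr11:48861968-48871683) encodes an immunity-related GTPase that acts on membranes around intracellular microbes. Its counts were 5, 5 and 2 in the wild type and 14, 47 and 17 in the null replicates. Every null library was above 1 CPM and every wild type library below it. The wild type mean of 0.395 ± 0.170 CPM compares with a null mean of 2.71 ± 1.36 CPM (SD, n = 3), and the log2 fold change was 2.79 (SE 0.54), the highest of the 8 tested genes. Scaled for depth, the summed counts had a ratio of 7.25, with a 95% exact interval of 3.92 to 14.6 that covers counting error only.

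The null libraries also differed among themselves in these genes. The genes were picked on their null values, so nothing is read from the next count. Of the 9 genes, 7 had their highest null value in replicate 2 and the other 2, Rsad2 and Bst2, in replicate 1, while 33.7% of all tested genes were highest in null replicate 2. Among the wild type libraries the highest value fell on replicates 1, 2 and 3 for 3 genes each. The 7 genes off chromosome 2 summed to 19.2, 24.5 and 12.2 CPM over null replicates 1, 2 and 3 and to 5.35, 6.78 and 5.55 CPM over the wild type ones. Null replicate 3 was thus the null library nearest to the wild type.

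Compared between genes, which needs a value per length, all 9 were low in the wild type MGE. Fragments per kilobase per 1000000 counts (FPKM) were highest for Ube2l6, at 0.990 ± 0.155 (SD, n = 3), and 84.1% of the tested genes had a higher wild type mean, against a median of 5.24 FPKM over all tested genes. Below it came Bst2 at 0.490 ± 0.615, Ifih1 at 0.278 ± 0.0341, Irf7 at 0.217 ± 0.0271 and Rsad2 at 0.169 ± 0.0531 FPKM. Ddx58 at 0.128 ± 0.0427, Oasl2 at 0.0958 ± 0.0187, Irgm1 at 0.0540 ± 0.0233 and Uba7 at 0.0400 ± 0.00793 FPKM ended the order. Of the neighbours in this order, Ifih1 and Irf7 did not overlap between libraries, nor did Oasl2 and Irgm1, while the other neighbours overlapped. In the null libraries the order ran from Ube2l6 at 2.25 ± 0.624 FPKM through Bst2, Rsad2, Oasl2, Ifih1, Irgm1, Ddx58 and Irf7 to Uba7 at 0.213 ± 0.0557 FPKM, and all neighbours overlapped. Rsad2, Oasl2 and Irgm1 thus stood higher in the null order than in the wild type order, and Ifih1, Irf7 and Ddx58 lower.

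Of the 9 genes, 8 passed the filter on low counts, and all 8 had a log2 fold change above 0. Irgm1, Uba7, Rsad2 and Oasl2 passed it only through their null libraries, where they are high. The signs and the next medians therefore follow in part from the pick and the filter, and nothing is read from them. The median of the 8 was 1.40, against -0.00464 over all 14929 tested genes. It was 1.91 for the 6 tested genes off chromosome 2. With genotype as the only term of the edgeR quasi-likelihood test, 0 of the 8 were called higher at an adjusted p under 0.05, where 0.0469% of all tested genes were. At an unadjusted p under 0.05 it was 7 of the 8, all but Irf7, where 5.91% of all tested genes passed in either direction. When the replicate number was added as a block, 6 of the 8 were called higher, all but Ifih1 and Irf7, where 2.22% of all tested genes were. With no filter on low counts edgeR called Uba7, Oasl2 and Irgm1 of all 9 genes, where 0.0910% of all genes were called higher. DESeq2 called Uba7, Oasl2 and Irgm1 without the block, where it called 0.268% of all genes higher, and the same 3 with it, where it called 0.643%. With the block and 1 pair of libraries left out, 4 of the 8 were called without pair 1, where 4.41% of all tested genes were called higher, 0 without pair 2 (0.445%) and 5 without pair 3 (0.691%). Without pair 2 the blocked log2 fold changes of the 6 genes that lost their call ranged from 0.90 for Ube2l6 to 2.41 for Irgm1. The stricter filter, 10 counts in every library of 1 genotype, gave 0 calls among the 8, where 0.0693% of all tested genes were called higher, and limma on FPKM gave 0 among the 9 (0.0506%). Without the block and with 1 library left out, 0 of the 8 were called each time, where the share of all tested genes called higher was 0.00%, 0.0197% and 0.0132% without wild type replicates 1, 2 and 3 and 0.0524%, 0.0787% and 0.0262% without the null ones. These counts describe the contrast that the genes were picked on.

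The rest of the interferon pathway was taken from 8 lists by role, with these 9 genes left out. Of 142 identifiers 114 had a count and 67 were tested. Without the block 0 were called by edgeR, with 4 higher and 2 lower at an unadjusted p under 0.05, and DESeq2 with and without the block and limma on FPKM also called 0. With the block 2 rose, namely Eif2ak2 and Gbp9, and 1 fell, Rnaseh2a, while 2.22% of all tested genes rose and 1.78% fell. The median log2 fold change of the 67 genes was 0.05 (0.05 with the block), and 41 of them were above 0. Every null library lay above every wild type library for 5 of them and below for 3, where these shares were 4.95% and 8.06% over all tested genes.

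**Figure D2:**
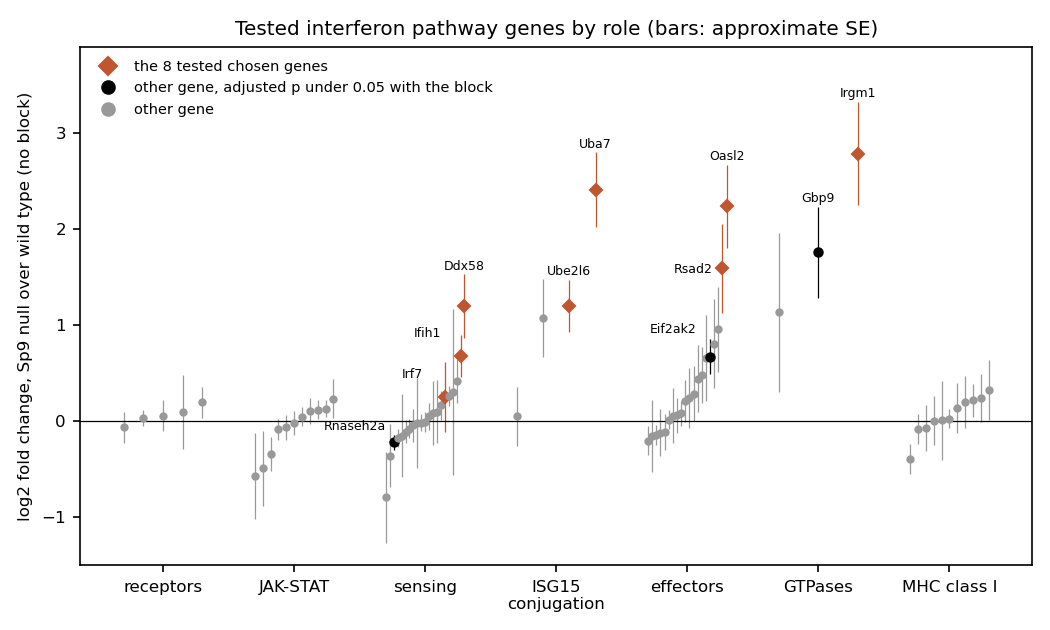
Log2 fold change of Sp9 null over wild type (y axis, fit without the block) with its approximate SE for each tested interferon pathway gene, grouped by role on the x axis. The 8 tested chosen genes (diamonds) lie between 0.25 and 2.79, and the median of the 67 other genes is 0.05.

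Interferon genes themselves were almost uncounted. Of 21 interferon genes 20 were at 0 in all libraries, a limit of 0.273 to 0.440 CPM at 3 counts, and the remaining 1, Ifnk, had 3 counts in wild type replicate 1. Of the 5 tested receptor genes 0 were called with or without the block, by edgeR, and their median was 0.05. Ifnar1 and Ifnar2, the subunits of the type I receptor, had log2 fold changes of 0.03 (SE 0.08) and 0.05 (SE 0.16). Ifngr2 had the highest value, 0.20, and Ifngr1 the lowest, -0.06.

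Of the 11 tested genes of JAK-STAT signalling 0 were called with or without the block by edgeR, and 0 by DESeq2 or limma on FPKM, with 0 at an unadjusted p under 0.05 without the block. Stat2 and Irf9, which carry the signal of the type I receptor to DNA, were at -0.09 (SE 0.11) and 0.11 (SE 0.13). Irf2, a regulator of interferon-responsive genes, was highest at 0.24 (SE 0.21). Ptpn6, a phosphatase that dampens signalling, was lowest at -0.57 (SE 0.45). The median of the 11 genes was -0.02.

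Of 18 tested genes of nucleic acid sensing 0 rose and 1 fell with the block, and their median was -0.02. The gene that fell, Rnaseh2a, encodes the catalytic subunit of an enzyme that removes ribonucleotides from DNA, and its mean levels were 222.7 ± 1.23 in wild type against 188.8 ± 17.3 CPM (SD, n = 3). Its log2 fold change was -0.22 (SE 0.08), with an edgeR adjusted p of 0.0259 with the block and 0.771 without. Trim25, the ubiquitin ligase known to activate RIG-I, was highest at 0.42 (SE 0.23), and Nlrx1, a mitochondrial protein described as an inhibitor of sensing, was lowest at -0.79 (SE 0.47).

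Of 18 tested effector genes 1 rose with the block, Eif2ak2, and the median was 0.15. Eif2ak2 encodes PKR, the kinase that stops translation on binding double-stranded RNA. Its counts were 109, 141 and 131 over the wild type and 114, 269 and 164 over the null replicates, and in CPM the genotypes did not overlap. The log2 fold change was 0.67 (SE 0.18), with an edgeR adjusted p of 0.00286 with the block and 0.563 without. Lgals3bp, a secreted glycoprotein, was highest at 0.96 (SE 0.44) without passing, with overlapping libraries.

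Only 2 GTPase genes were tested, Gbp9 and Gbp7, both guanylate-binding proteins. Gbp9 rose with the block, from 5, 7 and 3 counts in the wild type to 8, 16 and 22 in the null replicates. Its log2 fold change was 1.76 (SE 0.47), with an edgeR adjusted p of 0.0385 with the block and 0.538 without. Gbp7 was at 1.13 (SE 0.83) and its libraries overlapped. Guanylate-binding proteins are close copies of each other, so reads may be shared among them. Of 11 tested genes of MHC class I presentation 0 were called, between Erap1, a peptide-trimming enzyme, at 0.32 (SE 0.31) and Psme2, a proteasome activator subunit, at -0.40 (SE 0.16, blocked edgeR adjusted p = 0.0501). Eif2ak2, Gbp9 and Rnaseh2a all lost their blocked calls without the replicate 2 pair, with edgeR adjusted p from 0.247 to 0.422. Their blocked log2 fold changes were then 0.48, 2.08 and -0.18, against 0.66, 1.73 and -0.22 with all pairs. Without the replicate 3 pair Eif2ak2 kept its call (0.0168) and the other 2 lost theirs.

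Many interferon-stimulated genes were too low for the test. Of 47 counted genes of the lists that the filter removed, 10 had every null library above every wild type library and 2, Isg20 and Ifit3, every null library below. Among all 8151 counted genes that the filter removed, these shares were 2.96% and 4.56%. A gene with fewer than 3 counts cannot separate in this way, and the 2 sets were not matched for depth. Of the 30 genes with 10 or more summed counts, 22 had a higher depth-scaled sum in the null libraries. The share among all removed genes with as many counts was not computed, so nothing is read from this count. The genes named in the next sentences were chosen after their values were seen. Ifi44, induced by type I interferon, had 0 counts in all wild type libraries and 7, 21 and 12 in the null replicates, at least 14.9-fold higher against a floor of 3 counts over the wild type group. It was the 1 gene of the lists called when no filter was used (edgeR adjusted p = 0.0178). Rtp4, a chaperone gene induced by interferon, had 0, 0 and 1 counts against 8, 24 and 4. Xaf1, a gene of cell death signalling, had 2, 1 and 2 counts against 14, 20 and 6. Scaled for depth this was 8.92 times as many (95% exact interval 3.52 to 29.0, counting error only). Ifitm3, which blocks virus entry, had 4, 4 and 2 counts against 17, 16 and 6. In all 4 genes the null libraries lay above the wild type ones. Irgm2, a close relative of Irgm1, had 1, 5 and 1 counts against 6, 17 and 7, and its locus overlaps that of Igtp. In the other direction Isg20, an exonuclease gene, had 5, 11 and 1 counts against 0, 1 and 0, and Oas3, a synthetase of the oligoadenylate family, had 13 wild type and 2 null counts in all.

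**Figure D3:**
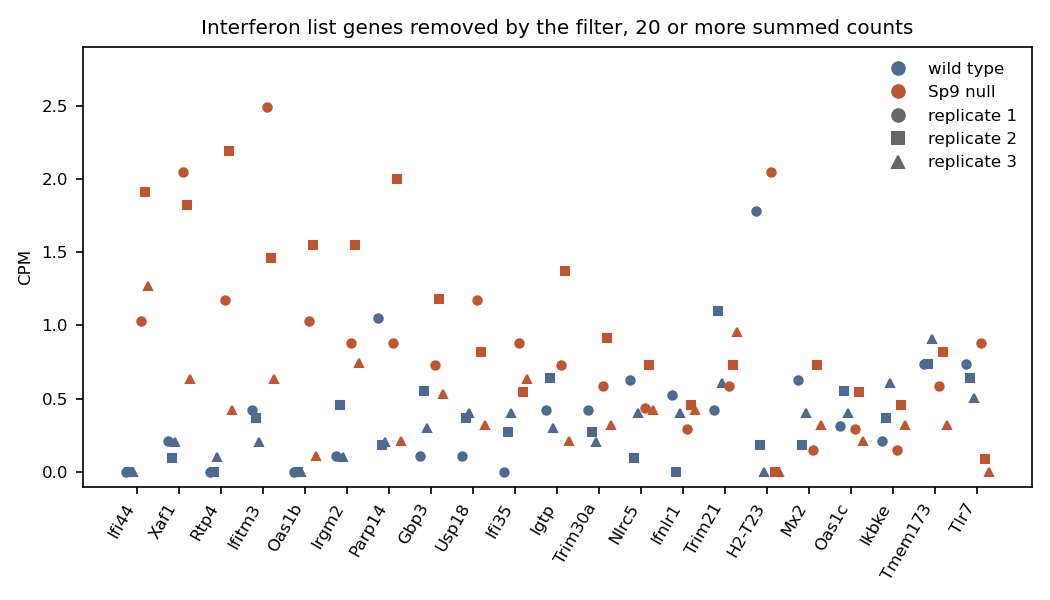
Level in each library (y axis, CPM) of the 21 interferon list genes that the filter removed and that had 20 or more summed counts, with colours for genotype and shapes for replicate number. In 16 of the 21 the null mean was the higher, in 7 every null library lay above every wild type library, and in 0 below. Isg20 and Ifit3, with every null library below, had fewer than 20 summed counts and are not drawn. Shares over all removed genes with as many counts were not computed.

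Ube2l6 and Ifih1 share a chromosome with the altered Sp9 locus, and calls around them are given beside those elsewhere, with no test of the difference. Of the 185 tested genes within 20 Mb of Sp9, Sp9 and these 2 left out, 18.9% were called with the block (25 rose and 10 fell), against 3.77% of 14735 tested genes elsewhere. Without the block it was 2 higher and 1 lower. Within 1 Mb of Ifih1, 3 of 6 tested genes rose with the block and 0 fell. They were Gca, a calcium-binding protein gene and the nearest tested gene above it, at 0.47 (SE 0.11, blocked edgeR adjusted p = 0.00832), the potassium channel gene Kcnh7 at 0.81 (SE 0.10, 1.66e-06) and the pallial factor Tbr1, whose libraries overlapped. Slc4a10, the nearest tested gene on the other side, was at 0.89 (SE 0.46) and did not pass. Within 1 Mb of Ube2l6, 2 of 29 tested genes rose with the block, the integrin gene Itgav at 0.58 (SE 0.12) and Fam171b at 0.61 (SE 0.07). There 4 predicted genes fell, Gm13691, Gm13694, Gm13695 and Gm13697, which form a cluster of copies whose reads cannot be assigned securely. Gm13698 and Gm13693 of the same cluster had 1096 and 889 wild type against 78 and 63 null counts in all. They were not called, and null replicate 2 held 77 and 60 of their null counts. The nearest tested neighbours of Ube2l6, Serping1 at -0.23 (SE 0.26) and Timm10 at 0.63 (SE 0.20), did not pass (blocked edgeR adjusted p = 0.713 and 0.0699). For Ube2l6 and Ifih1, the effect of losing Sp9 and that of linked sequence on chromosome 2 cannot be told apart in this design.

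**Figure D4:**
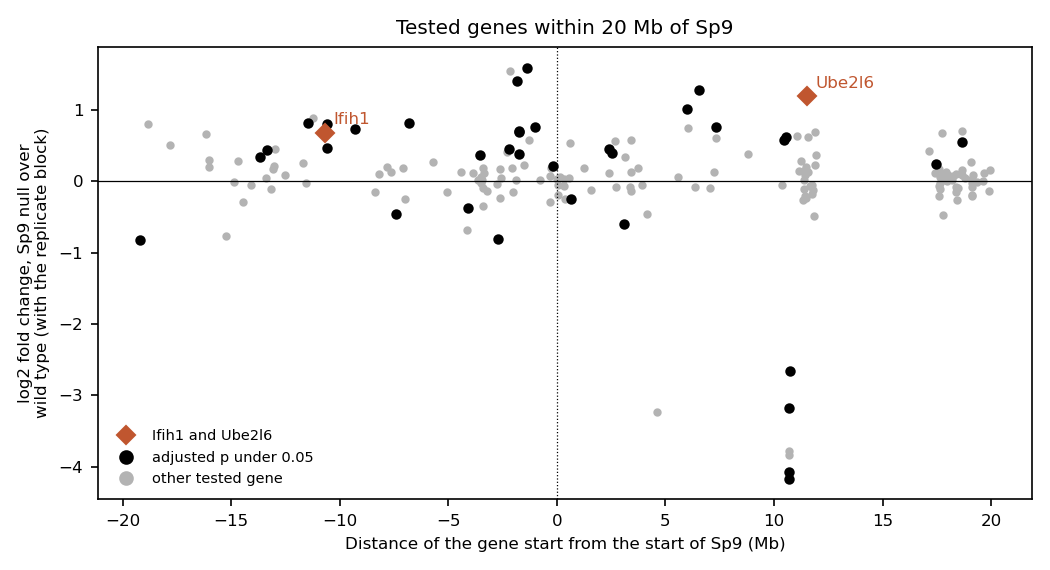
Log2 fold change of Sp9 null over wild type in the fit with the replicate block (y axis) against the distance of a gene's start from that of Sp9 in Mb (x axis), for tested genes within 20 Mb. Ifih1 and Ube2l6 (diamonds) are at 0.68 and 1.20, and black points mark the other genes with an adjusted p under 0.05.

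In whole tissue, more cells of a type and more RNA per cell cannot be told apart. Markers of microglia, a cell type known to express many interferon-stimulated genes, were lower in the null libraries. Without Sall1, which neural cells also express, 10 microglia markers summed to 35.3, 36.6 and 32.5 CPM over the wild type and 14.5, 12.1 and 8.91 CPM over the null replicates. The genotypes did not overlap, in the direction opposite to that of the 7 chosen genes off chromosome 2. Of all 11 microglia markers 9 were tested. Without the block edgeR called 0 of them, with 7 lower and 1 higher at an unadjusted p under 0.05. DESeq2 called 3 lower and 0 higher, where it called 44 lower and 40 higher of all 14929 tested genes. With the block 6 fell, namely P2ry12, Cx3cr1, Csf1r, Aif1, Fcrls and C1qb, and Sall1 rose. Over all tested genes 1.78% fell and 2.22% rose with the block. C1qa, Tmem119 and Trem2 overlapped between the genotypes, as did Sall1. P2ry12, a nucleotide receptor of microglia, averaged 5.61 ± 1.06 CPM in wild type against 0.617 ± 0.417 CPM (SD, n = 3), and its log2 fold change was -3.11 with the block (SE 0.35, edgeR adjusted p = 9.82e-08). All 11 markers together, Sall1 included, summed to 110.7 to 133.8 CPM in wild type, against 99.3 to 138.4 CPM in null libraries, and none was at 0 in all libraries.

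Other cell types that can carry interferon-stimulated genes gave small or overlapping sums. The 6 macrophage markers summed to 1.51 to 1.57 CPM in wild type, against 0.318 to 1.82 CPM in null libraries. The 10 markers of other leukocytes summed to 2.52 to 2.73 CPM against 1.38 to 2.34 CPM, and 4 of them were at 0 in all libraries. Among these 10, Siglech is expressed by microglia and by the dendritic cells that make much interferon. It was counted 12, 11 and 9 times in wild type and 0 times in all null libraries. S100a9, of the same list, went the other way, with 0 counts in all wild type libraries and 3, 2 and 2 in the null replicates. The 8 endothelial markers summed to 150.3 to 169.8 CPM against 141.5 to 162.7 CPM, the 6 pericyte markers to 67.7 to 73.5 against 59.6 to 77.1 CPM, and the 6 meningeal markers to 17.8 to 24.8 against 23.7 to 25.9 CPM. Erythroid genes summed to 819.1 to 1248.7 CPM in wild type, against 830.3 to 1277.1 CPM in null libraries, highest in replicate 2 of both. The part of these cell types in the levels of the 9 genes was not tested.

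**Figure D5:**
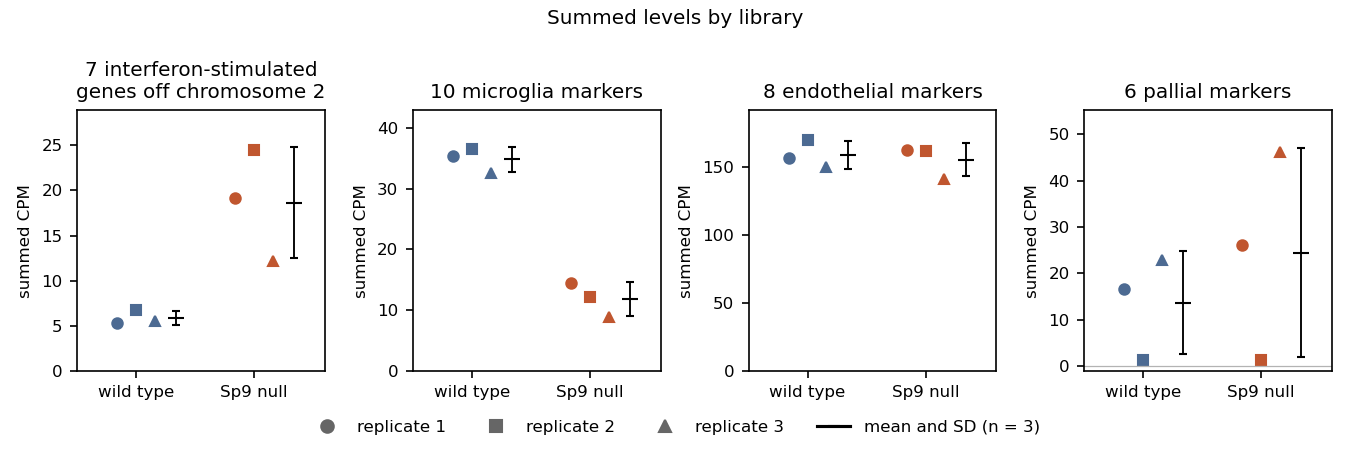
Summed level (y axes, CPM) by library of the 7 chosen genes off chromosome 2, of 10 microglia markers, of 8 endothelial markers and of the pallial markers, with black bars for the mean and SD (n = 3). The chosen genes were at 5.35 to 6.78 CPM in wild type and 12.2 to 24.5 CPM in null libraries, and the microglia markers at 32.5 to 36.6 and 8.91 to 14.5 CPM.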

How the data were processed

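RNA-seq was measured in 6 MGE libraries, 3 wild type and 3 Sp9 null, grouped by the genotype label. For each gene and library the deposited table holds a whole-number read count and an FPKM value, per the file headers. TopHat, Cufflinks 2.1.1 and the build GRCm38.p4 are named in the submitters' processing notes, with no role stated. The counting program and strand setting were not given in the sources used here. Each deposited FPKM equalled the count divided by a fixed gene length and the library total, to a relative difference under 0.001, in 21180 of 21180 genes counted in 2 or more libraries, so FPKM is no independent measurement. The number of unused sample columns was 0.

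CPM is the count per 1000000 counts of the library. The main test was the edgeR quasi-likelihood test (edgeR 4.0.16, R 4.3.3, TMM scaling, the default expression filter, robust dispersions, genotype as the only term, two-sided) over 14929 genes, with Benjamini-Hochberg adjustment over all of them and calls at an adjusted p under 0.05. The edgeR fits were tested on simulated counts, where they recovered most of the larger changes and where the share of false calls exceeded the level set by the adjusted p, with and without the block. Standard errors are approximate, from the log2 fold change and the F statistic. Intervals of count ratios are exact (Clopper-Pearson) at 95%, from counts summed over the libraries of a genotype. They cover counting error only, and not the spread between libraries. Alternatives were the replicate number as a block, DESeq2 1.42.0, other filters, limma 3.58.1 on log2(FPKM + 0.1) and leaving libraries out. The limma fit kept genes with a mean FPKM of 0.1 or more, and its fold changes understate those of low genes.

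Same-numbered libraries 1, 2 and 3 deviated together from their genotype means, with correlations across genes of 0.336, 0.729 and 0.535, all over 0.1, and were therefore treated as pairs. The pairing comes from the data, since the labels do not say what a number marks. Wild type 1 with null 3 reached 0.354 and wild type 3 with null 1 reached 0.23, so numbers 1 and 3 were not told apart. Only number 2 was set apart by these correlations. Calls and p-values with the block rest on a pairing chosen from the same counts. The biological coefficient of variation was 0.171 without and 0.0676 with the block.

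The 9 genes, the 8 interferon lists and the 11 lists of other cells, tissues and sex were chosen with earlier results of these data known, and some genes of these lists are not reported here and enter no list count or sum. Named beside the 9 genes were called list genes, the highest and lowest tested gene of each list, the nearest and called neighbours on chromosome 2, and genes that explain a role. Gene coordinates come from the deposited table (GRCm38), and promoter sequences are from RefSeq on GRCm38.p6.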

Additional observations from a re-analysis of the deposited data

How the results depend on the processing

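Depth limits the low genes most, since 3 counts equal 0.273 to 0.440 CPM and Bst2 and Irgm1 had 12 wild type counts each in all. The genes were picked on these same libraries and every alternative refits them, so a sign that stays above 0 was nearly fixed and supports nothing. Of the 8 tested genes, 7 kept a log2 fold change above 0 in all 15 alternatives. Irf7 fell below 0 in 2 of them, at -0.18 with the replicate block and without the replicate 2 pair and at -0.08 without null replicate 2. The values of the other genes ranged from 0.51 to 0.79 for Ifih1, 0.79 to 1.51 for Ddx58, 1.15 to 2.73 for Uba7, 0.90 to 1.44 for Ube2l6, 1.10 to 2.07 for Rsad2, 1.39 to 2.51 for Oasl2 and 1.56 to 3.19 for Irgm1. Their median, 1.40, was 1.11 by limma on FPKM, 1.27 to 1.67 without 1 library, and 1.16 to 1.75 with the block and without 1 pair. Off chromosome 2 the median, 1.91, was 1.14 by limma, 1.57 to 2.20 without 1 library, and 1.56 to 2.22 with the block and without 1 pair.

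Over all genes the count of calls was 22 without the replicate block (7 higher and 15 lower) and 597 with it (332 and 265). It was 84 by DESeq2 (40 higher and 44 lower), 163 by DESeq2 with the replicate block (96 and 67), 65 with no filter on low counts (21 higher and 44 lower) and 38 by limma on FPKM (9 higher and 29 lower). Leaving out 1 library or 1 pair gave 2 to 1193 calls: 2, 11 and 6 without wild type replicate 1, 2 and 3, 34 without null replicate 2, and with the block 1193, 126 and 219 without pair 1, 2 and 3. Of the interferon list genes other than the 9, 0 were called without the block, 3 with it, 1 with no filter, and 0 to 6 with libraries left out.

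The counts near the genes on chromosome 2 were recomputed as alternatives chosen after seeing the data. Within 1 Mb of Ube2l6 or Ifih1 there were 0 calls without the replicate block, 9 with it, 3 by DESeq2, 6 by DESeq2 with the block, 4 with no filter and 0 to 9 with libraries left out. Within 20 Mb of Sp9 there were 3 calls without the block, 35 with it, 16 by DESeq2, 25 by DESeq2 with the block, 13 with no filter, 5 with the stricter filter of 10 counts in every library of 1 genotype, 0 to 10 without 1 library, and 42, 26 and 23 with the block and without pair 1, 2 and 3. The ISRE core count, 5 of 9 promoters, was 3 in the 250 bases before the start, a shorter window. The order of wild type levels was the same with TMM scaling. For the other changes the cause was not tested.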

Other observations

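Among the tested genes other than the 9, those whose log2 CPM over the 6 libraries was most like the mean standardised log2 CPM of the 6 tested genes off chromosome 2 were Papd5, with a Pearson r of 0.992, Pou3f4 (0.982), Ktn1 (0.981), Ephb1 (0.981) and Sema5a (0.979). These values describe the same 6 libraries of both genotypes, which differ in depth, and the 5 genes were the highest among all tested. Their log2 fold changes with the replicate block were 0.22, 0.36, 0.15, 0.18 and 0.40, smaller than those of the genes they follow, apart from Irf7 at 0.24.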
